A study of Mus musculus with 8 samples.

Results

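The Zfp, Zkscan and Zscan genes of the mouse make up a large share of its zinc finger genes. They were followed here in Med23-/- knockout and wild-type embryonic fibroblasts before and after serum. Members were chosen by name: every probe set with a single annotated symbol made of Zfp, Zkscan or Zscan and a number, leaving out Zfp36. This gave 249 probe sets of 166 genes out of 22626 on the array. Of these, 183 probe sets of 128 genes (119 Zfp, 5 Zkscan and 4 Zscan) reached the 40th percentile of their array on at least 2 of the 8 arrays and were tested, among 14947 tested in all. The family was selected on its fall with serum in these same arrays, so its serum changes below are a description, with counts but no p-values, and support nothing by themselves. The difference between the genotypes, averaged over starved and stimulated cells, is orthogonal to the serum changes and was tested.

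Most Zfp genes encode C2H2 zinc finger proteins, in which strings of short zinc-binding loops read DNA. Many of these carry a KRAB domain, which recruits the corepressor TRIM28 and with it the histone methyltransferase SETDB1, and they silence transposable elements and selected genes. The SCAN domain of Zkscan and Zscan proteins lets them pair with one another. The name is older than this biology and also covers proteins of other kinds, such as the LIM protein Zfp185 and the ribosome assembly factor Zfp622. KRAB zinc finger genes tend to lie in clusters and to be transcribed at low levels.

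The cells were mouse embryonic fibroblasts from embryonic day 11, passaged through crisis, of either wild-type (WT) or Med23-/- (KO) genotype. MED23 is a subunit of Mediator, which links activators to RNA polymerase II. All were held for 16 h in 0.5% FBS. In each genotype 2 arrays came from cells left in that medium (starved) and 2 from cells then brought to 20% FBS for 30 min (stimulated), so each of the 4 groups has n = 2 arrays. The labels give no strain beyond the genotype and do not say that replicates were separate cultures, so p-values measure only the spread between these samples, and loss of MED23 cannot be told apart from other differences between the lines. In a bulk sample, fewer cells of a type and less RNA per cell cannot be told apart either.

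Replicate arrays correlated at 0.976 to 0.984 across tested probe sets, and array trimmed mean signals lay between 2500.6 and 2500.8. The Med23 probe set read 3577 to 5410 on the WT arrays and 28 to 132.5 on the KO arrays. Of 10 fibroblast markers 9 were tested, and Thy1 lay below the filter in both genotypes. Col1a1, Fn1 and Vim were bright in both. In KO cells 8 markers were higher, Col1a2 by 4.85 and Col3a1 by 2.30 on the log2 scale. Pdgfra averaged 126.7 and 13.37 in starved and stimulated WT cells against 13470 and 6510 in KO cells, and the summed signal of the list was 190700 to 219300 on WT and 322200 to 428900 on KO arrays. Epithelial markers summed to 1809 to 2157 on WT and 639.9 to 1515 on KO arrays (3 of 6 tested). Cdh1 and Epcam lay below the filter, and Krt19 was lower in KO cells, at -3.55 on the log2 scale. Endothelial markers summed to 780 to 998.4 on all 8 arrays (1 of 4 tested). Leukocyte markers summed to 1434 to 2211 on WT and 2102 to 2224 on KO arrays (2 of 5 tested, with Ptprc below the filter), neural markers to 1304 to 1442 and 1840 to 2424 (2 of 4 tested, Map2 higher in KO cells by 2.27 on the log2 scale and Tubb3 lower, at -3.74), and muscle markers to 490.5 to 778.4 and 850.7 to 880.2 (1 of 3 tested, with Myod1 and Myog below the filter). The part of these line differences in the results was not tested.

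The promoter windows of 5 members called in both genotypes are shown, Zfp688, Zfp30, Zfp82 and Zfp503, which fell, and Zfp131, which rose. They were picked after the values were seen, the first 3 and Zfp131 as examples of the motifs searched and Zfp503 as a strongly changed gene whose window holds none of them, as is also so for Zfp287. Each window runs from 250 bases before to 50 after the RefSeq start in build GRCm38.p6, 5′ to 3′ on the gene's strand, with the motifs searched in capitals. The window of Zfp688 lies at chr7:127421985-127422284 on the minus strand, that of Zfp30 at chr7:29783718-29784017 on the plus strand, that of Zfp503 at chr14:21989552-21989851 on the minus strand, that of Zfp82 at chr7:30072774-30073073 on the minus strand and that of Zfp131, the first of 2, at chr13:119790683-119790982 on the minus strand.
Zfp688: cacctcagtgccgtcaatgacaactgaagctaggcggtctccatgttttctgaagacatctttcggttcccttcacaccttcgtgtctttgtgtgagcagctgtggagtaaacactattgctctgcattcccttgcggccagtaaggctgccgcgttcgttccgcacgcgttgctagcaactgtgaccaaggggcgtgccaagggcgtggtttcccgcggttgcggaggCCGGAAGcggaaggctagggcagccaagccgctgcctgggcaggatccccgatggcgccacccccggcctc
Zfp30: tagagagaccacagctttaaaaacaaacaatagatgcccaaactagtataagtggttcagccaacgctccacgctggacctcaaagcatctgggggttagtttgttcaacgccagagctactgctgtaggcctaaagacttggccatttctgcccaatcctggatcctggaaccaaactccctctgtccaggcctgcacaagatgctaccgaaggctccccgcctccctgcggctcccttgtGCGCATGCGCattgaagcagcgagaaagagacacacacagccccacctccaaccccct
Zfp82: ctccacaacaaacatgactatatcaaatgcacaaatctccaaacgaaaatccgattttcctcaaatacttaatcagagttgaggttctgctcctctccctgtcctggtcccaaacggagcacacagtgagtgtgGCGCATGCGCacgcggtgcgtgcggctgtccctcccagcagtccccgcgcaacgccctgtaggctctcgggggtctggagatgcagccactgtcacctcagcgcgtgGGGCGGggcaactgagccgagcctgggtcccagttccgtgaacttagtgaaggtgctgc
Zfp503: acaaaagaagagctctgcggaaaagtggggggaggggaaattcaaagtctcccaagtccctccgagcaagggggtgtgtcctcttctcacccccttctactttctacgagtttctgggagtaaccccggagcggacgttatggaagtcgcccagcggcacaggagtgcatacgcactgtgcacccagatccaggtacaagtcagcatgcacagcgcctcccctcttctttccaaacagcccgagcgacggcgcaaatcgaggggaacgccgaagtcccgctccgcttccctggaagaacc
Zfp131: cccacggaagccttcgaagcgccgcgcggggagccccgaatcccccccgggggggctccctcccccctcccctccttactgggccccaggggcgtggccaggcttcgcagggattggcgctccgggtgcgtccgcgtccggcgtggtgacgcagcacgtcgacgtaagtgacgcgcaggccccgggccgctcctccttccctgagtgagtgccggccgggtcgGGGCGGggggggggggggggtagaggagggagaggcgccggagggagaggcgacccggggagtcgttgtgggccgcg

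The capitals mark an ETS core in Zfp688, the palindrome bound by NRF1 in Zfp30 and Zfp82, and a GC box in Zfp82 and Zfp131. RefSeq windows were at hand for 102 of the 128 genes, 123 windows in all, of 32851 in the table. The GC box GGGCGG, read by SP and KLF factors, was in 55.3% of the members' windows against 35.7% of all windows. The ETS core CCGGAAG was in 17.1% against 8.9%, and the NRF1 palindrome of 10 bases in 4.9% against 1%. The AP-1 site TGANTCA, which Fos and Jun bind, was in 6.5% against 7.8%, and the cyclic AMP response element TGACGTCA in 0.8% against 1.8%. Both strands were read, and none of these motifs overlapped another in the windows printed. The members' windows held a median of 17 CG dinucleotides against 7 over all windows, and a median GC content of 57.3% against 52.7%, and the part of this composition in the motif shares was not tested. The 60 genes with a GC box had a median log2 serum change of -0.28 in WT and -0.42 in KO cells, and the 42 without one -0.61 and -0.98. The 6 genes with the NRF1 palindrome were Zfp30, Zfp82, Zfp213, Zfp329, Zfp334 and Zfp639. Their log2 changes in KO cells ran from -2.57 in Zfp30 to -1.03 in Zfp639, all called. In WT cells they ran from -1.55 in Zfp30 to -0.04 in Zfp334, with 2 called. Of the 96 genes without the palindrome, 44 were called lower in KO cells (median -0.60) and 14 in WT cells (median -0.40). Among all genes by their brightest probe set, 15.2% and 1.99% were. KO medians with and without an ETS core were -0.66 and -0.64, and with and without an AP-1 site -0.60 and -0.64. A match is a string of letters in this window and says nothing of a bound factor.

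The family was dim. The tested members had a median mean signal of 1075, against 2229 for all tested probe sets, and the other 66 had a median of 143.5 (13.07 to 422.5). Counts over tested members leave those 66 out. The filter passed 73.5% of members and 66.1% of all probe sets. Of the 183 tested, 106 reached the 40th percentile on all 8 arrays, 23 on starved arrays alone, 2 on stimulated arrays alone, 9 on KO arrays alone and 6 on WT arrays alone. Members of these last 4 groups had to differ between states or genotypes to be tested. On the second highest array, the member closest inside the filter was Zfp61 at 1.008 times the percentile value (signals 75.46 to 725.7 over the arrays) and the member closest outside was a Zfp444 probe set at 0.972 times (353.5 to 530.9). The brightest members by gene were Zfp622, Zfp275, Zfp207, Zfp281 and Zfp106. Zfp622 read 14540 to 16270 on WT arrays and 22260 to 24820 on KO arrays, and Zfp275 read 10090 to 14690 over all 8.

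After 30 min of serum the family stood lower in both genotypes, and further in KO than in WT cells. The median log2 change of the members, serum minus starved, was -0.28 in WT cells, where that of all tested probe sets was -0.05. In KO cells it was -0.48 against -0.13. Their median signal was 1207 and 1046 on the starved WT arrays, 881.1 and 879 on the stimulated WT arrays, 1230 and 1287 on the starved KO arrays and 922.7 and 865.5 on the stimulated KO arrays. Every stimulated array thus lay below every starved one. The values lay below 0 in 77.6% of members and 57.4% of all probe sets in WT cells, and in 82.5% and 63% in KO cells. Centring each array on its median, which shifts all probe sets alike, gave KO medians of -0.38 and -0.02.

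**Figure D1:**
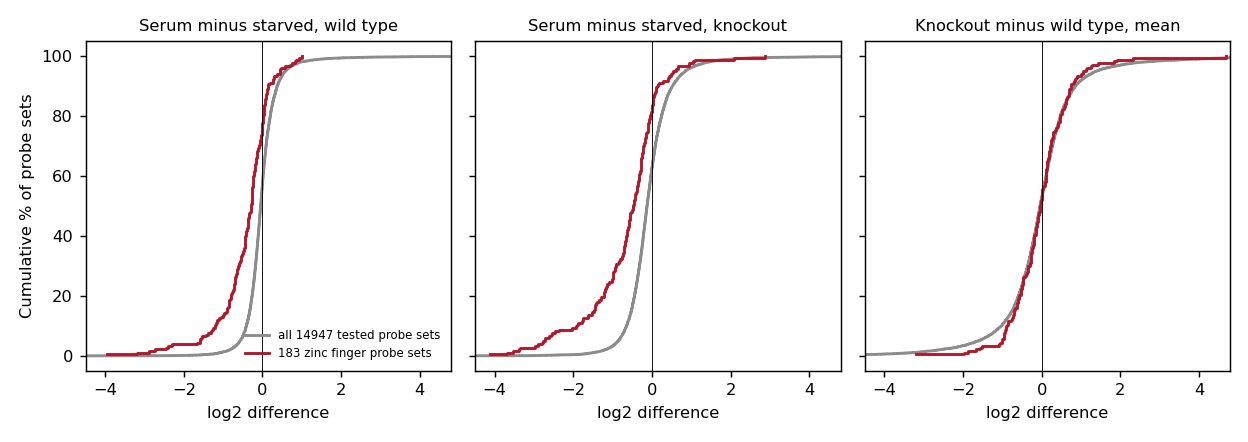
Cumulative share (%) of probe sets by log2 difference in 3 comparisons, for the 183 tested zinc finger probe sets (red) and all 14947 tested (grey); the x axis leaves out a few other probe sets at either end. The red curve lies left of the grey one with serum (medians -0.28 against -0.05 in WT and -0.48 against -0.13 in KO cells) and on it between genotypes (-0.04 for both).

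A probe set was called where its adjusted p in limma, taken over all tested probe sets, was under 0.05. In WT cells 21 members of 20 genes were called lower (11.5% of members, where 1.7% of all tested were) and 2 higher (1.09%, against 2.44% of all). In KO cells 76 members of 66 genes were called lower (41.5%, against 13.8% of all) and 10 of 8 genes higher (5.46%, against 9.33% of all). The filter let in 23 members past the percentile on starved arrays alone, against 2 on stimulated arrays alone, which favours falls. With no filter, 17 of 249 members were called lower in WT cells, where 0.804% of all probe sets were. In KO cells 80 were, against 7.56% of all. Since the family was picked for its fall, nothing is read from these shares. The WT count of 21 was 6 and 7 without starved WT array 1 or 2, and 11 and 10 without stimulated WT array 1 or 2, and the 2 rises became 0 without starved WT array 1 or 2 or stimulated WT array 2 and 1 without stimulated WT array 1 (in limma 5 to 9 members rose at an unadjusted p under 0.05 in these fits). The KO count of 76 was 55 to 74 over the arrays left out, while the 10 rises were 6 without starved KO array 1 or stimulated KO array 1 and 4 without stimulated KO array 2.

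All 21 members called lower in WT cells were also called lower in KO cells, where they were 27.6% of the calls. Over all tested probe sets 165 were called lower in both, which was 65% of the WT and 8.01% of the KO calls. The WT and KO changes come from different arrays, though the fit gives them a shared spread for each probe set. Both rises of WT cells, Zfp131 and Zfp568, recurred in KO cells, and no member was called in opposite directions.

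**Figure D2:**
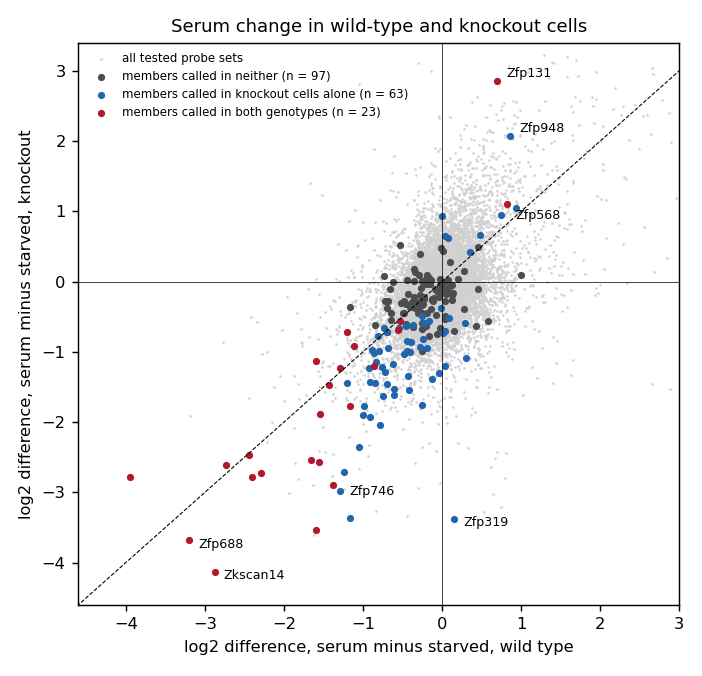
Log2 serum change (serum minus starved) in WT cells (x axis) and KO cells (y axis) of the 183 members, coloured by call, over all tested probe sets (grey; the axes leave out a few of these); the dashed line marks equal change. Of the members, 23 were called in both genotypes, 63 in KO cells alone and 97 in neither, and 66.7% of them lie below the dashed line against 56.7% of all tested.

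Zkscan14, a protein with KRAB and SCAN domains by its name, fell furthest in KO cells. Starved WT arrays read 755.3 and 723.4 and stimulated ones 85.16 and 88.91, while KO arrays read 943.7 and 852.9 and then 46.23 and 27.9. The log2 changes were -2.87 ± 0.362 (SE) and -4.13 ± 0.362, and the stimulated arrays of each genotype lay far under the starved ones. Zfp688, whose window with an ETS core is printed above, went from 645.6 and 530.9 to 51.56 and 47.45 in WT cells and from 1151 and 484.2 to 44.24 and 42.58 in KO cells. Its log2 changes were -3.20 ± 0.476 and -3.68 ± 0.476. The starved KO arrays differed by over 2-fold, and the KO change was -3.07 and -4.30 without starved KO array 1 or 2. In stimulated cells both genes read below the 40th percentile of the arrays (412.6 to 497.4), so these sizes depend on the constant of 16 added to the signal. Both genes passed the filter through starved arrays alone.

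Zfp503 is a corepressor of the small NET family and acts in embryonic patterning. Its dimmer probe set went from 806.5 and 431.6 to 25.22 and 21.51 in WT cells, a log2 change of -3.95 ± 0.47, and from 825.4 and 608.9 to 118 and 66.25 in KO cells, a change of -2.79 ± 0.47. A second, brighter probe set of Zfp503 gave -1.60 ± 0.355 in WT and -3.53 ± 0.355 in KO cells. All stimulated values of both sets (21.51 to 261) lay below the 40th percentile, so these sizes also depend on the added constant and their order between genotypes is not read. Both sets passed the filter through starved arrays alone. Zfp703, the other NET family gene, behaved differently. It read 4356 and 4609 in starved and 4908 and 6179 in stimulated WT cells, and 2192 and 2692 against 1011 and 1269 in KO cells. Its log2 change was 0.30 ± 0.171 in WT cells and -1.09 ± 0.171 in KO cells, so that it fell in KO cells and did not pass in WT cells.

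Other members fell in both lines. Zfp60 changed by -2.74 ± 0.408 in WT and -2.61 ± 0.408 in KO cells, and Zfp113 by -2.29 ± 0.394 and -2.72 ± 0.394. Zfp287 changed by -2.40 ± 0.51 and -2.79 ± 0.51. Zfp467, which favours the adipocyte fate in marrow stromal cells, gave -2.45 ± 0.502 and -2.46 ± 0.502 on a dim probe set (22.01 to 540.2), and -0.83 and -1.15 on a brighter one. Zfp61 changed by -1.65 ± 0.397 and -2.53 ± 0.397, and Zfp112 by -1.59 ± 0.32 and -1.13 ± 0.32. All stimulated values of Zfp60, Zfp113, Zfp287, Zfp61, Zfp112 and the dim Zfp467 set lay below the 40th percentile. These sizes thus depend on the added constant too, and these sets passed the filter through starved arrays alone. For Zfp112 and the dim Zfp467 set those were KO arrays, and all their WT values lay below the percentile. Zfp30 went from 1207 and 1099 to 315.3 and 461.6 in WT cells and from 1425 and 2061 to 387.4 and 195.6 in KO cells, a change of -1.55 ± 0.328 and -2.57 ± 0.328. Several of these WT calls were lost when an array was left out. The changes kept their sign, but how far their size moved differed by gene. It moved little for Zfp112 (-1.53 to -1.65) and Zfp688 (-3.06 to -3.34). It moved further for Zfp30, Zfp61, Zfp467, Zfp113, Zfp287 (-1.96 to -2.84) and Zfp60 (-2.28 to -3.19). The call of Zfp61 was lost without any 1 of the 8 arrays and that of Zfp112 without any 1 of the 4 WT arrays. Those of Zfp287 and Zfp467 were lost without either starved or the second stimulated WT array, that of Zfp30 without either starved or the first stimulated one, that of Zfp113 without starved or stimulated WT array 2, and those of Zfp60 and Zfp688 without starved WT array 1. Over the 12 members named for WT cells, only Zfp503 and Zkscan14 kept their call in every alternative run that held their probe set.

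In KO cells Zfp746, also known as PARIS, a repressor that parkin marks for degradation, went from 2379 and 1826 to 430.4 and 141.2. Its log2 change was -2.99 ± 0.392, against -1.29 ± 0.392 in WT cells, which did not pass. The KO change of Zfp746 was -3.74 and -2.23 without stimulated KO array 1 or 2. Zfp53 went from 846.8 and 1024 to 92.06 and 134.9, a change of -2.89 ± 0.262. In WT cells, where it was also called lower, the change was -1.38 ± 0.262. Stimulated and starved KO arrays did not overlap for either gene, as the naming rule required. This held for all 76 members called lower in KO cells. Zfp975 (-3.36 ± 0.473) and Zfp707 (-2.71 ± 0.407) also fell in KO cells, with WT values of -1.16 and -1.25 that did not pass. Zfp975 gave -3.95 and -2.77, and Zfp707 -3.37 and -2.06, without stimulated KO array 1 or 2. The Zfp975 probe set has a letter suffix (x), which marks sets that may also bind related transcripts, as 33 of the 183 tested members had a suffix of some kind.

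A few members ran the other way. Zfp131, which has a BTB domain and C2H2 fingers, went from 2539 and 2791 to 4648 and 4016 in WT cells and from 1170 and 1296 to 10240 and 7979 in KO cells. The log2 changes were 0.70 ± 0.154 and 2.86 ± 0.154. Starved KO cells thus held less of it than starved WT cells, and stimulated KO cells held more than any other group. Zfp948 changed by 0.86 ± 0.243 in WT cells, which did not pass, and rose by 2.08 ± 0.243 in KO cells, from 479.4 and 790.7 to 2543 and 2770. Zfp568, a KRAB protein that represses a placental Igf2 promoter, went from 2333 and 2590 to 4168 and 4513 in WT cells and from 2028 and 2158 to 3713 and 5474 in KO cells, a change of 0.82 ± 0.176 and 1.10 ± 0.176. The other genes called higher in KO cells were Zfp593, related to a yeast factor of ribosome assembly (1.04 ± 0.251), Zfp644, a partner of the histone methyltransferase G9a (0.95 ± 0.209), Zfp281, a stem cell factor that binds Nanog (0.93 and 0.65 on 2 probe sets), Zfp330 (0.62) and Zkscan5 (0.66). In WT cells Zfp593 changed by 0.94, Zfp644 by 0.74 and Zkscan5 by 0.48, and none of these passed. Zfp330 changed by 0.07 there and the 2 Zfp281 sets by 0.001 and 0.04, and these did not pass either. In WT cells the calls of Zfp131 and Zfp568 were lost without any single WT array. In KO cells that of Zfp593 was lost without starved array 2 or either stimulated array, and that of Zfp644 without stimulated array 2. Zfp36, which the rule leaves out, encodes an RNA decay factor and read 2351 and 2465 in starved against 21590 and 20600 in stimulated WT cells.

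**Figure D3:**
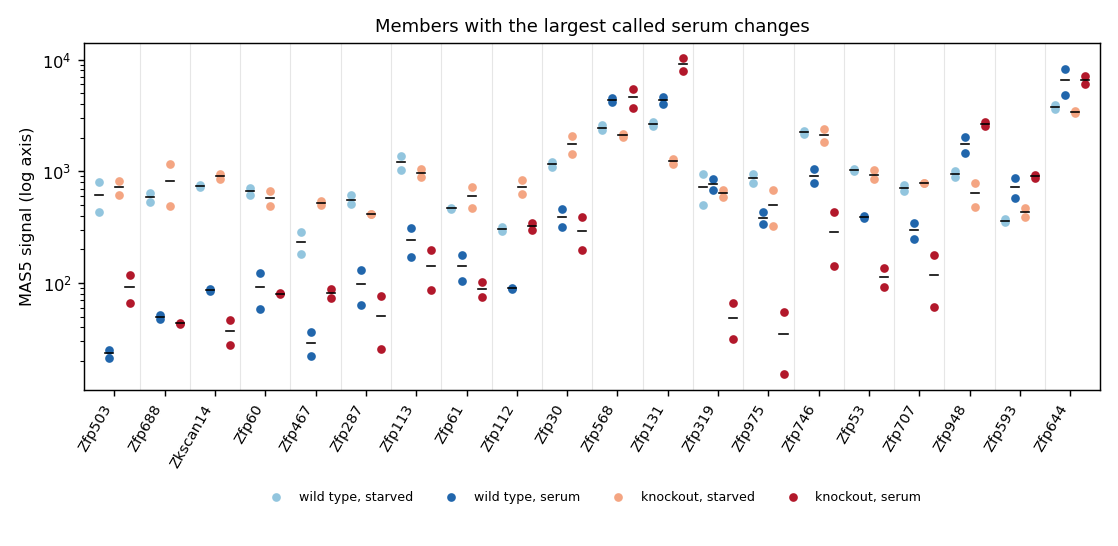
MAS5 signal (log axis) on each of the 8 arrays for the 20 members with the largest called serum changes, coloured by group (2 arrays each; black bars are group means). Blue and red stimulated points lie under the pale starved points for most genes, and above them for Zfp568, Zfp131, Zfp948, Zfp593 and Zfp644.

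The difference between the serum changes, KO minus WT, is made of the changes that picked the family and is described only. Its median was -0.15 over the members and -0.06 over all tested probe sets. It was called lower for 4 members (2.19%, against 1.08% of all tested) and higher for 1 (0.546%, against 1.61% of all). Both Zfp319 probe sets were among the 4. The brighter one gave -1.24 on the log2 scale, and the dim one -3.53 ± 0.539, from signals of 945.3 and 498.8 in starved and 680.9 and 861.3 in stimulated WT cells against 677 and 594.2 and then 66.12 and 31.77 in KO cells. The others were Zfp703 at -1.39 and Zfp334 at -1.26, and the 1 higher was Zfp131 at 2.16. The count of 4 was 2 without starved WT array 1 or stimulated KO array 2, and 1 without starved or stimulated WT array 2; the count of 1 was 2 without starved KO array 2.

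By the level in starved cells, the members had lower medians than all probe sets of their bin, save in the top bin of WT cells. The size of the fall did not follow the level in one order. Binned by the mean log2 signal of the starved arrays, the 63 members between 9 and 10 had a median change of -0.41 in WT cells (-0.03 for all probe sets in the bin), the 49 between 10 and 11 had -0.36 (-0.07) and the 34 between 11 and 12 had -0.31 (-0.08). In KO cells the medians were -0.99 (n = 57; all -0.16), -0.36 (n = 50; all -0.19) and -0.45 (n = 39; all -0.16). The bin under 9 (19 members) had -0.15 in WT cells (all 0.19) and -0.24 in KO cells (all 0.06). The bin at 12 and over (18 members) had -0.05 (all -0.06) and -0.30 (all -0.11). Both bins are thin. Binned instead by the mean over all 8 arrays, which the fall itself lowers, the 41 members under 9 had -0.89 and -1.45. MAS5 subtracts mismatch signal, which makes low values noisy, and the part of this in the members' changes was not tested.

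Neighbouring genes did not always move together. In RefSeq gene order (GRCm38.p6), 43 of the 128 tested genes lay in 11 runs of 3 to 6 members with at most 5 other protein-coding genes between neighbours. By the brightest probe set of each gene, 26 of those 43 and 34 of the other 85 were called lower in KO cells (15.2% of all genes counted this way were), with median changes of -0.86 and -0.45, and 8 and 10 in WT cells (1.99% of all), with medians of -0.55 and -0.25. The longest run holds Zfp84, Zfp30, Zfp790, Zfp568, Zfp82 and Zfp566. Zfp30, Zfp82 (-1.55 in WT and -1.89 in KO cells) and Zfp790 (-0.86 and -1.20) were called lower in both genotypes. Zfp84 (-0.41 and -1.005) and Zfp566 (-0.91 and -1.93) were called lower in KO cells alone, and Zfp568 rose in both genotypes. In the run of Zfp53, Zfp52 and Zfp948, the first was called lower in both genotypes. Zfp52 changed by -0.74 in WT and -0.66 in KO cells and was called in KO cells alone. Zfp948 changed by 0.86 and 2.08 and was likewise called in KO cells alone.

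Among the Zkscan and Zscan genes, Zkscan14, Zkscan1 (-0.99 in KO cells), Zscan12 (-1.77) and Zscan22 (-0.86) were called lower in KO cells. Zkscan5 rose. Zkscan3, a repressor of autophagy genes, gave -0.22 and -0.29 on 2 probe sets, and Zkscan6 (-0.49) and Zscan26 (-0.55) did not pass. The 4 probe sets of Zscan21 lay between -0.10 and 0.27 in KO cells and between -0.73 and 0.10 in WT cells, and none passed. Of these genes only Zkscan14 was called in WT cells.

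For 37 genes with 2 or more tested probe sets, the sets of a gene had the same sign in 27 genes with serum in WT cells and 29 in KO cells, and no gene had calls in opposite directions. Zfp207, a spindle and splicing protein, showed how far sets can part. Its 4 sets changed by -0.56 (12880 and 13440 to 9951 and 8000), -0.81, -0.69 and -0.19 in WT cells, of which the first passed, and by -0.69, -0.77, -0.38 and 0.09 in KO cells, of which the first 2 passed. The 3 sets of Zfp644 gave 0.95, 0.42 and 0.09 in KO cells, and the first 2 passed. In WT cells they gave 0.74, 0.36 and 1.00, and none passed.

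Other gene families named in the same way gave medians nearer 0. By the brightest probe set of each of 8453 genes, 1.99% were called lower and 2.76% higher in WT cells, and 15.2% and 8.41% in KO cells. The 15 tested Zbtb genes, which pair a BTB domain with zinc fingers, had medians of -0.15 in WT and -0.01 in KO cells, with 0 lower and 2 higher in WT cells (2 and 2 at an unadjusted p under 0.05 in limma) and 5 lower and 4 higher in KO cells. The 42 Rnf genes, mostly ubiquitin ligases with a RING finger, had -0.16 and -0.11, with 0 called in WT cells (7 lower and 2 higher at an unadjusted p under 0.05 in limma) and 7 lower and 4 higher in KO cells. By 1 probe set per gene the 128 members had -0.35 and -0.59, with 18 lower and 2 higher in WT cells and 60 lower and 8 higher in KO cells. The families differ in size and in level, and the difference between them was not tested. The partners of KRAB proteins had medians of -0.13 in WT and -0.02 in KO cells. Of 26 listed genes 20 were tested, and 0 were called with serum in WT cells (3 lower and 1 higher at an unadjusted p under 0.05 in limma), while in KO cells 2 fell and 2 rose. Setdb1 fell by 0.45 and Cbx5, which encodes the heterochromatin protein HP1 alpha, by 0.41 on the log2 scale, and Mta2 and Chd4, of the NuRD deacetylase complex, rose by 0.46 and 0.92. Trim28 itself had means of 19410 and 17630 in starved and stimulated WT cells and 19340 and 15510 in KO cells, changes of -0.14 ± 0.107 and -0.31 ± 0.107 that did not pass.

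The genotypes, by contrast, did not part the family as a whole. Averaged over serum states, KO minus WT, the members had a median log2 difference of -0.04, as did all tested probe sets (-0.04), and both moved with the scaling: the members' median was 0.03 under median centring, where that of all was 0.03, and 0.03 with quantile normalization. By limma with adjustment over all tested probe sets, 48 members of 40 genes were lower in KO cells (26.2%, against 32% of all tested) and 43 of 32 genes were higher (23.5%, against 27.7% of all). Neither share exceeded the background. The balance turned with the scaling, at 42 lower and 50 higher with quantile normalization and 44 and 51 under median centring. The 9 members that reached the 40th percentile on KO arrays alone gave 8 of the higher calls and the 6 on WT arrays alone 3 of the lower ones, as the filter favours. Among the other 168 members, 45 were lower (26.8%, against 31% of all probe sets that reached it in both genotypes) and 35 higher (20.8%, against 26.3%). For named members past the percentile in 1 genotype alone, the p given below comes from a fit with no filter. The 10% of members with the lowest values lay at -0.87 or less and the 10% with the highest at 0.75 or more, against -1.02 and 0.86 over all tested.

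Zfp423, which reached the percentile on KO arrays alone, had the largest difference. It encodes a coregulator of SMAD and EBF factors that marks preadipocytes, and read 8.896, 15.82, 10.15 and 15.12 on the WT arrays (starved, then stimulated) against 497.5, 1013, 663.3 and 748.2 on the KO arrays. All WT values lay at the bottom of the scale and all KO values above the 40th percentile. The log2 difference was 4.68 ± 0.389 (limma adjusted p = 3.86e-06 with no filter). It depends on the added constant, at 5.75 with 1, 3.34 with 64 and 1.85 with the largest constant tried in place of 16. Zfp185, a LIM protein of the actin cytoskeleton, read 108.2 to 347.8 on WT and 906 to 1622 on KO arrays, a difference of 2.31 ± 0.218 (limma adjusted p = 4.97e-05 with no filter), and 1.53 with the largest constant. This set too reached the percentile on KO arrays alone, while a second, brighter set gave 1.84 ± 0.117 (limma adjusted p = 5.31e-07). Zfp277, which binds the Polycomb protein Bmi1 and represses the Cdkn2a locus in fibroblasts, read 1003 to 1282 on WT and 3512 to 4927 on KO arrays. Its difference was 1.92 ± 0.1 (limma adjusted p = 1.3e-07).

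The other members named as higher in KO cells differed by 0.71 to 1.27. Zfp318, a nuclear protein needed for IgD expression in B cells, was higher by 1.27 ± 0.216 on a dim probe set that reached the percentile on KO arrays alone (limma adjusted p = 0.00167 with no filter). Its 3 other sets gave 0.62, 0.18 and 0.48, of which the first passed. Zfp395 was higher by 1.26 ± 0.12, and fell with serum in KO cells (-0.59). Zfp622, which matures the large ribosomal subunit, was higher by 1.14 ± 0.112 (1339 to 1409 on WT and 2701 to 3611 on KO arrays), and its brighter set gave 0.61 ± 0.0663. Zfp148, a GC-box binding factor also known as ZBP-89, was higher on all 4 of its sets, by 0.79, 0.64, 0.62 and 0.36. Zscan21 was higher on all 4 of its sets too, by 1.05, 0.87, 0.70 and 0.59, but the last of these reached the percentile on KO arrays alone and did not pass with no filter (limma adjusted p = 0.0832). Zfp654 (1.00), Zfp868 (0.89) and Zfp672 (0.75) completed the group with Zfp451, a SUMO ligase, at 0.71 ± 0.099. A second Zfp451 set was lower in KO cells (-0.59 ± 0.184, limma adjusted p = 0.0178), the only gene among the 37 with several sets whose calls opposed each other here.

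Lower in KO cells, Zfp991 read 2622 and 2786 in starved and 1153 and 1345 in stimulated WT cells, against 225.4 and 300.1 and then 109.8 and 155 in KO cells. The difference was -3.20 ± 0.175 (limma adjusted p = 1.79e-06 with no filter), or -2.24 with the largest constant. This set reached the percentile on WT arrays alone, and a second one gave -0.95 ± 0.184 (limma adjusted p = 0.00128). With serum the first set changed by -1.11 in WT and -0.91 in KO cells, both called lower. The second set gave -0.25 and -0.44, and neither passed. Zfp52 read 834.7 to 1585 on WT and 253.6 to 453.8 on KO arrays, a difference of -1.68 ± 0.148 (limma adjusted p = 3.21e-05 with no filter), and reached the percentile on WT arrays alone. Zfp703 differed by -1.57 ± 0.121 averaged over the states (limma adjusted p = 2.07e-06), with a difference of -0.88 in starved and -2.27 in stimulated cells.

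The remaining members named as lower in KO cells had, by the naming rule, no overlap between the 4 KO and the 4 WT arrays. These members had differences of -1.08 to -0.58. They were Zfp932 (-1.08 ± 0.138), Zfp64 (-1.02 ± 0.107), Zfp821 (-0.94 ± 0.116), Zfp106, Zfp84 (-0.87 ± 0.142), Zfp142 (-0.73 ± 0.136), Zfp91, Zfp959 (-0.67 ± 0.167, on WT arrays alone past the percentile, with a limma adjusted p = 0.0132 with no filter) and Zfp638. Zfp106, an RNA-binding protein that maintains motor neurons, was lower on all 3 of its sets, with differences of -0.92, -0.63 and -0.50. Zfp91, a ubiquitin ligase of non-canonical NF-kB signalling, gave -0.70 and -0.41 on the 2 sets that passed and -0.19 on a dim one. Zfp638, which promotes adipocyte differentiation and silences unintegrated retroviral DNA, differed by -0.58 ± 0.0957 (2663 to 3052 on WT and 1525 to 2492 on KO arrays) on the set that passed and by -0.02 on the other. Second sets of Zfp64 (-0.05) and Zfp84 (-0.27) did not pass either. Among the genes with 3 or more sets not yet described, Zfp292 was lower on 3 of its 4 (-0.48, -0.29 and -0.27; the fourth -0.04), Zfp24, a SCAN protein needed for myelination, was higher on 1 of 4 (0.44), and the sets of Zfp830, Zfp574 and Zfp110 lay between -0.26 and 0.26 with none passing. All 24 members named for the genotype difference kept their direction and their call in every alternative run that held their probe set. Some runs dropped some of these sets, as by a stricter filter or the removal of letter-suffix sets.

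**Figure D4:**
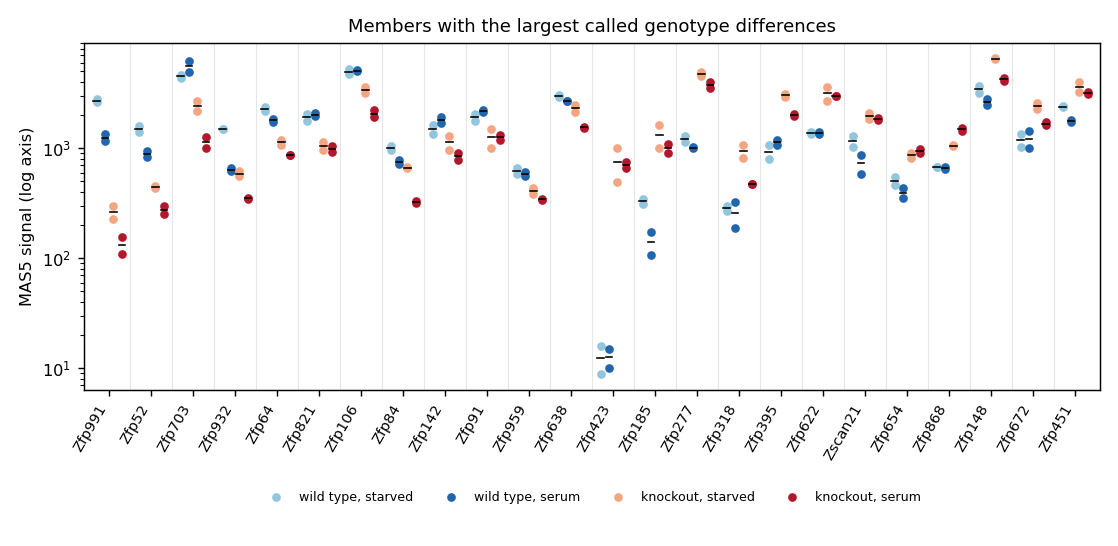
MAS5 signal (log axis) on each of the 8 arrays, coloured by group (2 arrays each, black bars are group means). Shown are 12 members lower (left) and 12 higher (right) in KO cells. They have the largest called differences, 1 set per gene, among those whose KO and WT arrays do not overlap. Larger called differences with overlap, such as those of Zfp975 (-1.97) and Zfp112 (1.44), are left out. By this choice the orange and red KO points lie apart from the blue WT points in each gene. The gap is widest in Zfp991 (109.8 to 300.1 against 1153 to 2786) and Zfp423 (497.5 to 1013 against 8.896 to 15.82).

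The partners of KRAB proteins were lower in KO cells in 7 of 20 cases and higher in 3, with a median of -0.14, where 33.1% and 28.6% of all genes were called. Uhrf1, which guides maintenance DNA methylation, differed by -2.04 ± 0.237 (limma adjusted p = 3.88e-05) and Dnmt1, the maintenance methyltransferase, by -0.92 ± 0.0874 (limma adjusted p = 9.74e-06). Cbx5 (-0.68) and the histone-binding Rbbp4 (-0.42) were lower as well, while its paralog Rbbp7 was higher (0.42). Trim28 and Setdb1 did not pass, at -0.10 ± 0.0758 and -0.19 ± 0.0988.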

How the data were processed

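Expression was measured on 8 mouse oligonucleotide arrays, 1 per sample. The deposited table holds MAS5 signals, a linear intensity for each probe set, per the submitters' processing notes; the version and detection calls are not given in the sources used here. Genes were named from the platform annotation given for the table, and RefSeq holds the same symbol for all 183 tested members.

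After removal of 64 controls, probe sets at or above the 40th percentile of an array on 2 or more of 8 arrays were tested. Signals were analysed as log2(signal + 16) with limma 3.58.1 (R 4.3.3). A model of the 4 groups used every array, with moderated variances that followed mean signal, and tests were two-sided (4 residual and 6.07 prior degrees of freedom). Benjamini-Hochberg adjustment ran over all 14947 tested probe sets. The fit was tested on simulated data.

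Members and gene lists were chosen with earlier results of these data known. Named members are, with no overlap of arrays, the largest called changes (10 down and 5 up per serum comparison, 12 and 12 between genotypes, 4 and 4 in the difference of serum changes), plus the 5 brightest genes, all Zkscan and Zscan genes and genes with 3 or more probe sets. Beyond this rule, Zfp330, Zfp790, Zfp82, Zfp566 and the genes with an NRF1 palindrome were named after their values were seen. Protein sequences were not used here. Alternatives are given in the closing section.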

Additional observations from a re-analysis of the deposited data

Results flagged for a closer look

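On 5 probe sets of 4 genes the difference between the serum changes of the genotypes passed limma's threshold. The family was picked on those changes, so this is a description and supports nothing. The difference, KO minus WT on the log2 scale, was -3.53 and -1.24 on the 2 Zfp319 sets, -1.39 for Zfp703, -1.26 for Zfp334 and 2.16 for Zfp131. The calls of Zfp703 were lost without either starved WT array, stimulated WT array 2 or stimulated KO array 1 and with no variance trend, and those of Zfp334 without starved or stimulated WT array 2 or stimulated KO array 2.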

How the results depend on the processing

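Among the named members no value changed sign under any alternative run: 171 of 216 values for WT serum, 267 of 271 for KO serum, 65 of 73 for the difference of serum changes and 436 of 436 between genotypes stayed past the threshold. With a 60th percentile filter, which leaves 91 members, 5 were lower with serum in WT and 32 in KO cells, 23 were lower and 26 higher between genotypes, and the medians were -0.32 for KO serum and 0.009082 (reversed from -0.04) between genotypes. Quantile normalization gave 0.03368 and median centring 0.02758 for that genotype median. The KO serum median was -0.40 with the largest pseudocount, -0.37 with quantile normalization, -0.38 under median centring and -0.59 with 1 probe set per gene, where 27 members were higher between genotypes. In WT cells 0 members were higher with no filter and 0 with no variance trend (9 in each at an unadjusted p under 0.05 in limma). The difference of serum changes was called higher for 2 members with a pseudocount of 64 or the largest one, quantile normalization, median centring, no variance trend, 1 probe set per gene or no letter-suffix sets, and for 3 with the set number as a replicate block.

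Counting only members that reached the percentile in both genotypes, a choice made after the data were seen, gave 45 lower and 35 higher between genotypes. The labels do not say what arrays with the same set number share. Deviations of same-numbered arrays correlated at 0.214 between the WT groups and at -0.0343 to 0.097 between other groups. With the replicate block 21 and 75 members were lower with serum in WT and KO cells, against 21 and 76.

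Leaving out each array in turn gave 6 to 23 lower and 0 to 3 higher for WT serum, 55 to 74 and 4 to 10 for KO serum, 1 to 5 and 1 to 2 for the difference of serum changes, and 39 to 49 and 39 to 44 between genotypes. The medians ran from -0.35 to -0.28 for WT serum, -0.51 to -0.48 for KO serum, -0.21 to -0.13 for the difference and -0.06 to -0.02 between genotypes. A group left with 1 array is assumed to vary like the others. With 2 arrays a group, an effect of small size on a dim probe set is not detectable.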
